A study of Mus musculus with 10 samples.

Results

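The endothelial cell markers described here are 32 genes that identify the cells lining blood vessels, measured as an estimate of endothelial RNA among isolated heart muscle cells. They were chosen by name, with earlier results of these data known. Transcript levels were summed by gene ID and the IDs were matched to symbols, and all 32 markers were found among the 45882 gene IDs of the files. Endothelial cells form the inner wall of every vessel of the heart and, in its dense capillary bed, lie directly against the muscle cells. They are held together by junction proteins such as VE-cadherin and claudin-5, respond to vascular endothelial growth factors and angiopoietins, pass fatty acids to the muscle and release nitric oxide. A preparation of cardiac myocytes can carry endothelial cells or their RNA with it, and the markers then show how much of it each library holds.

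The study sequenced RNA of left ventricular myocytes from adult mice of the strain C57BL/6, in 10 libraries that each carry a mouse number of their own. Of these, 3 were control, 4 carried the genotype CTCF_knockout and 3 came from TAC mice. TAC, transverse aortic constriction, narrows the aorta so that the left ventricle pumps against raised pressure, and CTCF is a DNA-binding zinc finger protein that organises chromatin loops. The cells in which Ctcf was deleted, the age of the mice, the time after surgery and the genotype of the TAC mice are not given in the sources used here.

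Levels are given in FPKM, which allows for the length of a transcript and the size of a library, after rescaling between libraries by a median of ratios. Read counts were not part of the files and sequencing depth is therefore unknown. The coverage listed per FPKM, which follows depth, had library medians from 3.90 to 6.09. Ctcf itself stood at 8.81, 8.34 and 6.80 FPKM in control, at 2.90, 4.01, 2.60 and 4.42 FPKM in knockout and at 7.32, 5.70 and 5.22 FPKM in TAC libraries, so every knockout library lay below every other library. The labelled cell type was seen in its markers, since 14 cardiomyocyte genes such as Myh6 and Tnnt2 summed to between 37441 and 50355 FPKM.

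Every endothelial marker was detected in every library, the lowest value being 0.576 FPKM for Tmem100 in knockout replicate 1, and all 32 passed the minimum mean of 1 FPKM for testing. Fabp4, a fatty acid binding protein of capillary endothelium and fat cells, had the highest mean over the 10 libraries, 75.5 FPKM. Egfl7 (34.0 FPKM), Cav1 (29.8 FPKM), Aqp1 (26.6 FPKM), Ly6c1 (25.7 FPKM) and Pecam1 (20.6 FPKM) followed, and 13 markers had a mean of at least 10 FPKM. The transcription factors Erg (2.17 FPKM), Sox18 (1.95 FPKM) and Sox17 (1.79 FPKM) were the lowest. The median marker stood at 7.52 FPKM, against 5.99 FPKM for all 11358 tested genes.

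The summed level of the 32 markers was 414, 319 and 414 FPKM in control, 477, 427, 293 and 391 FPKM in knockout, and 433, 404 and 450 FPKM in TAC libraries. The knockout range took in the whole control range, and 1 TAC library, replicate 2, lay below the highest controls. Means were 382 ± 54.8 (SD, n = 3), 397 ± 77.8 (SD, n = 4) and 429 ± 23.2 FPKM (SD, n = 3). The knockout mean was 1.04 times and the TAC mean 1.12 times that of control. When libraries were rescaled to other endothelial genes, from a list of 30, the ratios were 0.922 and 0.972. That scaling evens out endothelial RNA between libraries, so it cannot show how much of it each library holds. Against the 14 cardiomyocyte markers the endothelial sum was 0.645 to 0.918% in control, 0.597 to 1.04% in knockout and 0.845 to 1.08% in TAC libraries. Those 14 are no fixed measure. In knockout 2 were called higher and 5 lower (50%, against 20.8% of all tested genes). In TAC 2 were called higher and 3 lower (35.7%, against 15.5%). In bulk RNA, fewer endothelial cells and less endothelial RNA per cell cannot be told apart.

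Libraries of the same group differed in how much endothelial RNA they held. Control replicate 2 was the lowest control for 26 of the 32 markers, and knockout replicate 3 was the lowest knockout for 28 and the lowest of all 10 libraries for 15. Fibroblast markers were lowest in the same libraries of the control and knockout groups, while macrophage and leukocyte markers in control replicate 2 (79.8 FPKM) lay above control replicate 1 (76.2 FPKM). Fibroblast markers (12 genes) summed to 148 FPKM in control replicate 2 against 294 and 276 FPKM in the other controls, and to 253 FPKM in knockout replicate 3 against 291 to 394 FPKM in the other knockouts. The part of these library differences in the results below was not tested. No marker value and no marker sum stood apart within the knockout group by Dixon's test. That test was run on the knockout group only, so the control and TAC groups were not examined with it.

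**Figure D1:**
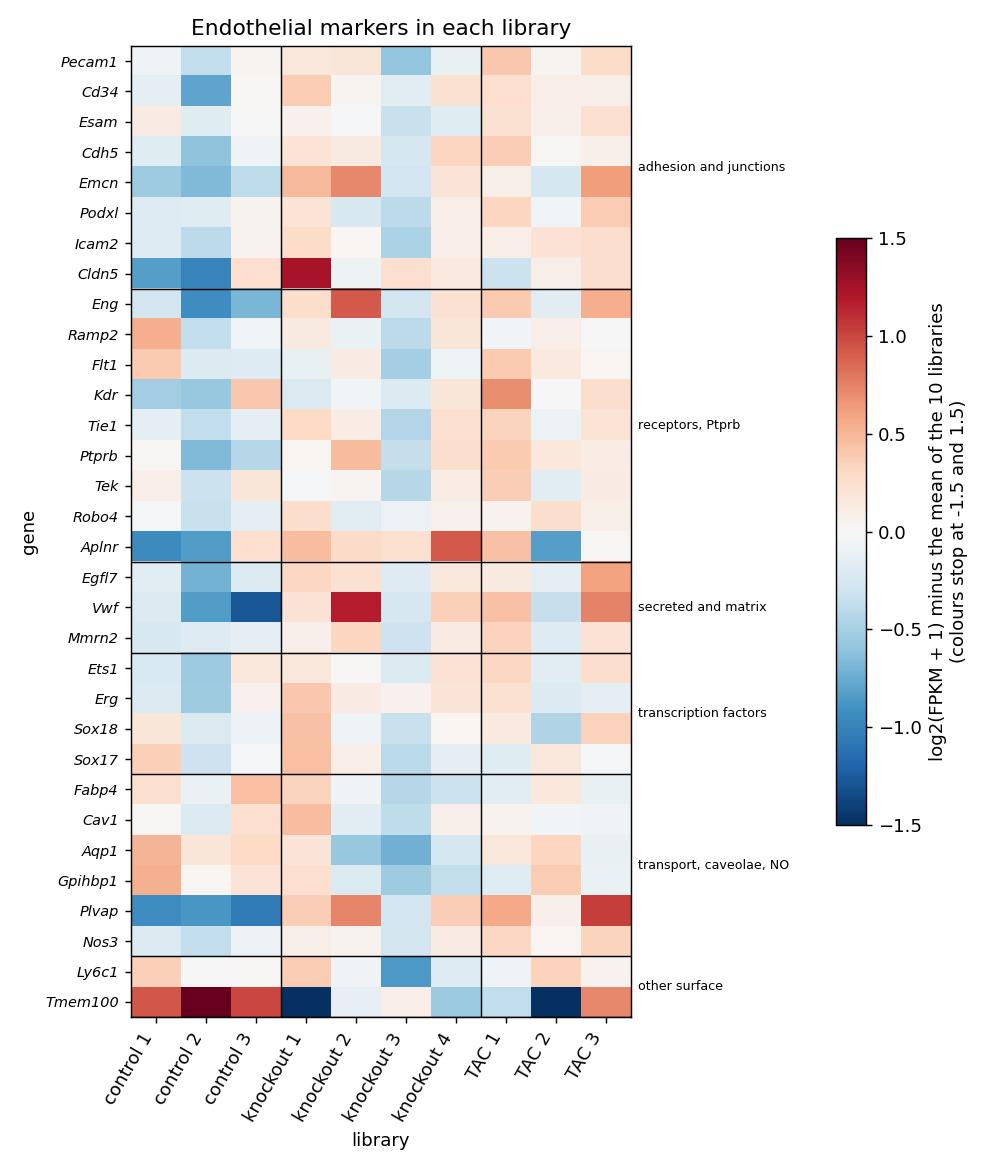
Level of each of the 32 endothelial markers (lines, ordered by role) in each library (columns), as log2(FPKM + 1) minus the gene's mean over the 10 libraries; colours stop at 1.5 either way. Control replicate 2 and knockout replicate 3 are pale to dark blue for most markers, Plvap is low in all 3 controls, and Tmem100 is high in all 3 controls.

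**Figure D2:**
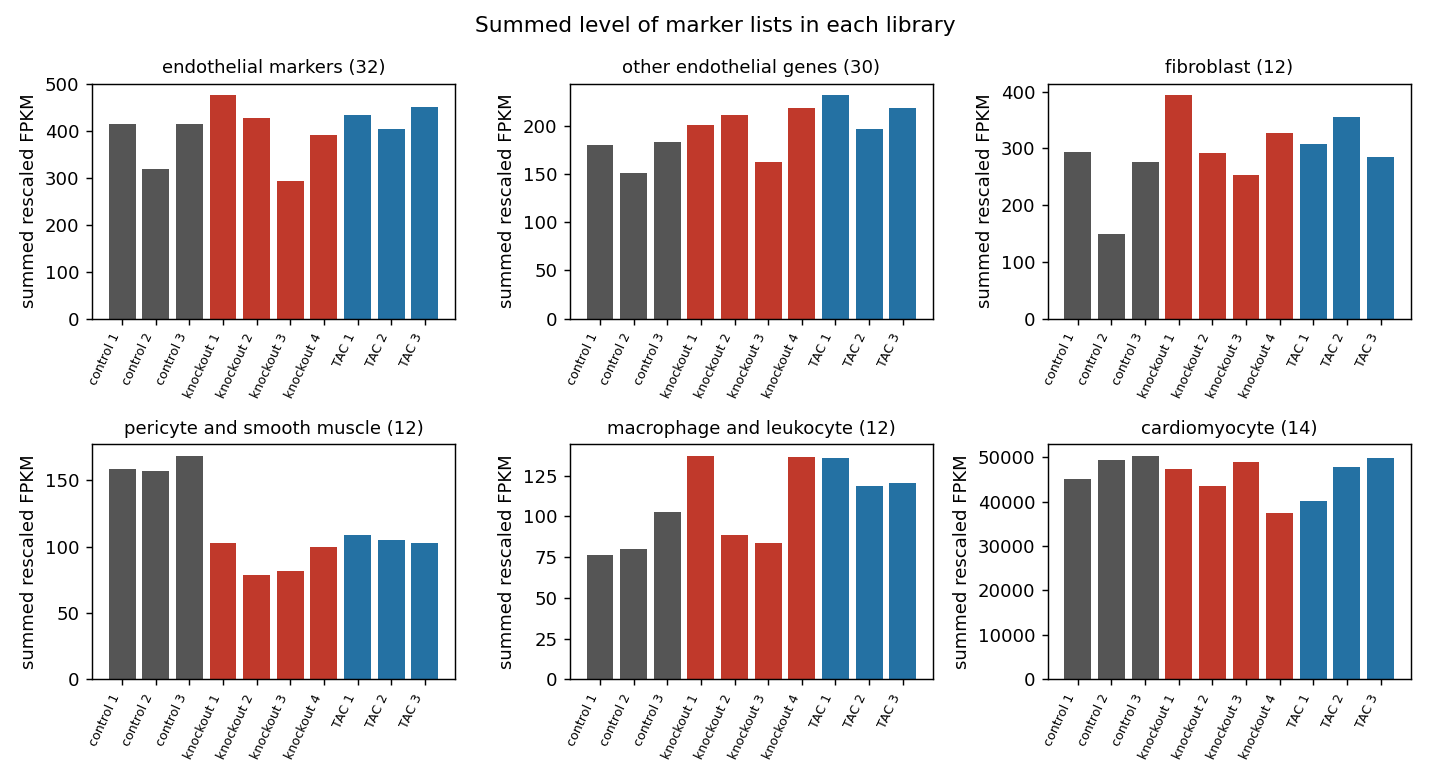
Summed rescaled FPKM of the 32 endothelial markers and of 5 other marker lists (number of genes in brackets), with 1 bar for each library. The endothelial sums lie between 293 and 477 FPKM with the groups overlapping, while the sums of pericyte and smooth muscle markers lie above 157 FPKM in the controls and below 109 FPKM in the other 7 libraries.

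Knockout libraries were compared with control to ask whether endothelial RNA differed after loss of CTCF. Plvap, Vwf, Eng and Emcn rose and Aqp1 and Tmem100 fell, at an adjusted p under 0.05 with limma and Benjamini-Hochberg adjustment over all tested genes. That is 6 of 32 markers, a share close to the background, since 20.8% of all tested genes were called in this comparison (10.6% higher and 10.2% lower). The median log2 fold change was 0.17 over the markers and -0.008 over all tested genes. A fold change above 0 was found for 21 markers, where 48.9% of all tested genes had one (18 to 26 markers over 5 other scalings), and an unadjusted p under 0.05 for 14 markers, where 33.7% did.

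TAC libraries were compared with the same 3 controls to ask whether endothelial RNA differed under pressure overload. Plvap and Nos3 rose, no marker fell at this threshold, and 30 of 32 were not called, where 15.5% of all tested genes were called (8.08% higher and 7.37% lower). The median log2 fold change over the markers was 0.33, against -0.005 over all tested genes. A fold change above 0 was found for 24 markers, where 49.4% of all tested genes had one (20 to 28 markers over those scalings), and an unadjusted p under 0.05 for 12 markers, where 30.0% did. All TAC libraries lay above all controls for 11 of the 32 markers, where 16.0% of all tested genes did so. Those 11 were Cd34, Cdh5, Egfl7, Emcn, Eng, Icam2, Nos3, Plvap, Ptprb, Robo4 and Tie1. Both comparisons rest on the same controls, so their values are given side by side and are not independent of each other.

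**Figure D3:**
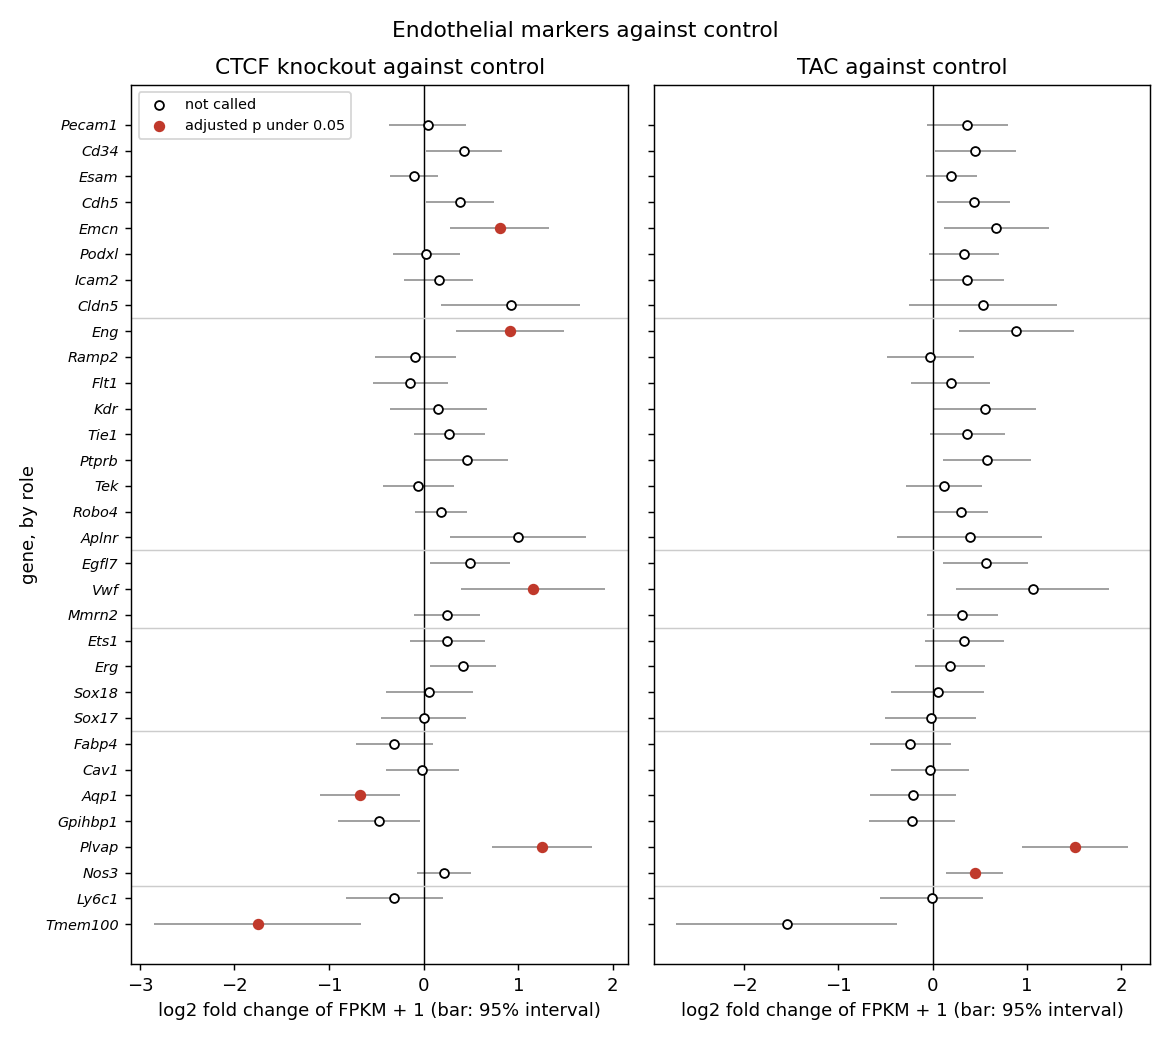
Log2 fold change of FPKM + 1 for each endothelial marker against control, in knockout (left) and TAC libraries (right), with 95% confidence intervals of the limma fit; filled points are called at an adjusted p under 0.05. Most markers lie between -0.5 and 1 with intervals that reach or nearly reach 0, and Plvap is called in both panels.

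Promoters of some called markers are shown because the ETS factors among the markers, Ets1 and Erg, bind DNA at a GGAA core. RefSeq start sites on GRCm38.p6 gave windows of 300 bases, 250 before to 50 after the start, for 14 of the 32 markers, 20 windows in all. The called markers Plvap, Vwf, Nos3 and Tmem100 had no window, so the printed ones do not stand for all called markers. The ETS form AGGAAG was searched on both strands, and its matches (AGGAAG or CTTCCT) are in capitals. The windows printed, 5′ to 3′ on the plus strand, are those of Eng at chr2:32646345-32646644, Emcn at chr3:137340828-137341127 and Aqp1 at chr6:55336049-55336348.
Eng: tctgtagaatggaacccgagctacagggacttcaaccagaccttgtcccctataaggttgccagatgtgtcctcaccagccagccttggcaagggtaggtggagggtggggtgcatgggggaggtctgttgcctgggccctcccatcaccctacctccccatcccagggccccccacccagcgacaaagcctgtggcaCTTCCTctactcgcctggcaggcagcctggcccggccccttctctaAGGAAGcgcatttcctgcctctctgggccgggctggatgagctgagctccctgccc
Emcn: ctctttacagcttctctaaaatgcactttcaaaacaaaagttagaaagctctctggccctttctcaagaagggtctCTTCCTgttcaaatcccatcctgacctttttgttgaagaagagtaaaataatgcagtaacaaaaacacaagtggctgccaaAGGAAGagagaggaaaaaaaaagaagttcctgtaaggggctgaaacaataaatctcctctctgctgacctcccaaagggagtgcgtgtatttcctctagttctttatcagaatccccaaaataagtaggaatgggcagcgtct
Aqp1: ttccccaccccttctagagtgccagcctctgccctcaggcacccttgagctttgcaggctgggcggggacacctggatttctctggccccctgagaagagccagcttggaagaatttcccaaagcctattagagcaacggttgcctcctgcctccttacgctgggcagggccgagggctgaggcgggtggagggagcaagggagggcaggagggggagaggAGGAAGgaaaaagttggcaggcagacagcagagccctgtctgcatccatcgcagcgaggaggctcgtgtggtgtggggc
Eng and Emcn hold 2 matches each and Aqp1 holds 1. Over all markers with a window, AGGAAG was found in 12 of 20 windows (60%), against 35.4% of the 32851 promoter windows of the table. A second ETS form, CCGGAA, was found in 1 window (Kdr) against 14.9% of all, the GATA form AGATAA in 2 (Tek and Erg) against 11.2%, and the SOX form ATTGTT in 3 (Emcn, Tek and Erg) against 10.7%. Some genes gave several windows, and those of Ly6c1 overlap, so windows are not independent. A match describes letters only.

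Plvap (ENSMUSG00000034845, mm10 chromosome 8, 71497754 to 71511769, minus strand) encodes the protein of the diaphragms that span endothelial fenestrae and caveolae and is sparse in continuous heart capillaries. It stood at 1.24, 1.34 and 1.07 FPKM in control libraries, at 4.54, 6.09, 2.50 and 4.53 FPKM in knockout libraries and at 5.32, 3.49 and 7.76 FPKM in TAC libraries. The controls were the 3 lowest libraries, and neither other group overlapped with them. The knockout mean of 4.41 ± 1.47 FPKM (SD, n = 4) was 3.64 times the control mean of 1.21 ± 0.136 FPKM (SD, n = 3), and the log2 fold change was 1.25 (SE 0.24, adjusted p = 0.00414). The TAC mean of 5.52 ± 2.14 FPKM (SD, n = 3) was 4.55 times control, and the log2 fold change was 1.51 (SE 0.26, adjusted p = 0.00293). Measured against another endothelial gene of the same library, Plvap amounted to 5.12 to 8.66% of the Pecam1 level in control, 19.1 to 26.3% in knockout and 16.8 to 31.4% in TAC libraries. The controls thus also kept apart from both other groups on this scale, while the knockout range lay within that of TAC. The 95% interval that the authors' deposited Cufflinks output lists for unscaled Plvap reached up to 1.64 FPKM in control libraries and began at 2.28 FPKM in the lowest knockout library and 2.77 FPKM in the lowest TAC library. The gene has 1 annotated transcript above 10% of its level. Plvap kept its call in all 21 alternative settings in knockout and all 20 in TAC that could test it, each library left out in turn included. It was not tested at a minimum mean of 5 FPKM, since its own mean was 3.79 FPKM.

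Of the 8 adhesion and junction markers, Emcn alone was called, in knockout, where 20.8% of all tested genes were called, and none was called in TAC by limma, where 15.5% were. Their median log2 fold change was 0.27 in knockout, with 4 at an unadjusted p under 0.05, and 0.40 in TAC, with 3. Of all tested genes, 33.7% in knockout and 30.0% in TAC had such a p. Emcn (ENSMUSG00000054690, chromosome 3, 137341067 to 137432185) encodes endomucin, a sialoprotein of capillary and venous endothelium. Its level was 6.67, 5.98 and 7.54 FPKM in control, 14.5, 17.2, 8.10 and 11.7 FPKM in knockout and 10.8, 8.21 and 16.2 FPKM in TAC libraries. All knockout and all TAC libraries lay above all controls, knockout replicate 3 and TAC replicate 2 by the least. The log2 fold change was 0.80 in knockout (SE 0.24, adjusted p = 0.0338) and 0.68 in TAC (SE 0.25, adjusted p = 0.0978). The knockout call was lost without any 1 of the 3 controls (adjusted p = 0.0763, 0.107 and 0.0545) and without knockout replicate 1 (0.0767), 2 (0.0882) or 4 (0.0543), in a range from 0.0106 to 0.109 over all alternatives.

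Pecam1, the CD31 antigen of endothelial junctions, showed no such separation. It stood at 19.5, 15.4 and 20.8 FPKM in control, 22.9, 23.2, 13.1 and 18.6 FPKM in knockout and 27.2, 20.8 and 24.7 FPKM in TAC libraries. Knockout libraries lay on both sides of the controls, with a log2 fold change of 0.04 (95% interval -0.36 to 0.45), and the log2 fold change in TAC was 0.37 (-0.06 to 0.80). Cdh5, the VE-cadherin that closes endothelial junctions, had means of 8.97 ± 1.88 in control, 12.0 ± 2.11 in knockout and 12.4 ± 1.77 FPKM in TAC (SD, n = 3, 4 and 3), with adjusted p = 0.127 in knockout and 0.119 in TAC. Claudin-5, from the tight junction gene Cldn5, ranged widely, from 1.56 to 5.12 FPKM in control and from 3.89 to 11.1 FPKM in knockout, and was not called (adjusted p = 0.0758). The other junction and surface genes, Cd34, Esam, Icam2 and Podxl, had log2 fold changes from -0.10 to 0.43 in knockout and from 0.20 to 0.45 in TAC, none called.

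Among the 9 receptors and receptor partners, Eng was the only gene called, in knockout (11.1%, against 20.8% of all tested genes). None was called in TAC by limma, where 15.5% of all tested genes were. Eng (ENSMUSG00000026814, chromosome 2, 32646595 to 32682669) encodes endoglin, a co-receptor for BMP9 and TGF-beta in endothelium. It was measured at 10.3, 6.19 and 7.52 FPKM in control, 15.5, 24.9, 10.2 and 15.1 FPKM in knockout and 17.0, 11.2 and 19.0 FPKM in TAC libraries. Knockout replicate 3 fell just inside the control range and the other 3 knockouts lay above it, as did all TAC libraries. The log2 fold change was 0.91 in knockout (SE 0.26, adjusted p = 0.0293) and 0.89 in TAC (SE 0.28, adjusted p = 0.0521). The near equal sizes sit on opposite sides of the threshold, and the difference between knockout and TAC was 0.02 (95% interval -0.55 to 0.59). The knockout call was lost without control replicate 2 (adjusted p = 0.111) or 3 (0.0754) and without knockout replicate 1 (0.0531), 2 (0.0645) or 4 (0.0513), in a range from 0.0108 to 0.111.

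The receptors for vascular endothelial growth factor and the angiopoietins were not called in either comparison. Kdr, the main signalling receptor for VEGF-A, had means of 6.25 ± 2.99 in control, 6.71 ± 1.03 in knockout and 9.31 ± 2.57 FPKM in TAC (SD, n = 3, 4 and 3). Its 95% interval ran from -0.36 to 0.67 in knockout and from 0.01 to 1.10 in TAC, with an adjusted p of 0.163 in the latter. Flt1, a VEGF receptor that also exists as a soluble form, had log2 fold changes of -0.14 and 0.19. Tek, the angiopoietin receptor TIE2, had -0.05 and 0.12, and its partner Tie1 had 0.27 and 0.37. Ptprb, the endothelial phosphatase that acts on TIE2, had 0.46 and 0.57, with adjusted p = 0.132 and 0.0927. Robo4 and Ramp2, a guidance receptor of endothelium and the partner of the adrenomedullin receptor, lay between -0.09 and 0.30. Aplnr, the apelin receptor, had means of 1.48 ± 1.24 FPKM in control (SD, n = 3) and 3.66 ± 1.06 FPKM in knockout (SD, n = 4), but control replicate 3 at 2.91 FPKM lay within the knockout range and the gene was not called (adjusted p = 0.0519).

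Vwf (ENSMUSG00000001930, chromosome 6, 125546774 to 125686679) encodes von Willebrand factor, which endothelial cells store and release for platelet adhesion and which is highest in veins and larger vessels. Of the 3 secreted and matrix markers it was the one called, in knockout, where 20.8% of all tested genes were called. None of the 3 was called in TAC by limma, where 15.5% of all tested genes were. The control libraries held 12.6, 7.83 and 5.48 FPKM, the knockout libraries 17.3, 34.9, 12.3 and 19.3 FPKM, and the TAC libraries 20.4, 11.5 and 25.6 FPKM. Knockout replicate 3 and TAC replicate 2 overlapped with control replicate 1, and knockout replicate 2 was highest of all. The log2 fold change was 1.16 in knockout (SE 0.35, adjusted p = 0.0352) and 1.06 in TAC (SE 0.37, adjusted p = 0.0765). The knockout call was lost without control replicate 2 (adjusted p = 0.0944) or 3 (0.127) and without knockout replicate 1 (0.0522), 2 (0.0822) or 4 (0.0638), in a range from 0.0142 to 0.127. Megakaryocytes and platelets also hold Vwf. Of 6 of their markers only 1 passed the minimum level, and their sum was 4.17 to 7.01 FPKM in control and 3.37 to 6.96 FPKM in knockout libraries. Their part in the Vwf difference was not tested. Egfl7, a secreted protein of endothelium and host gene of a microRNA, had log2 fold changes of 0.49 and 0.56, and Mmrn2, a matrix protein that binds VEGF-A, had 0.25 and 0.32, none called.

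The 4 transcription factors Ets1, Erg, Sox17 and Sox18, which direct endothelial gene expression, gave no call in either comparison. Of all tested genes, 20.8% were called in knockout and 15.5% in TAC. Ets1 had means of 4.83 ± 1.48 in control, 5.83 ± 0.897 in knockout and 6.29 ± 1.26 FPKM in TAC (SD, n = 3, 4 and 3). Erg ranged from 1.16 to 2.28 FPKM in control and from 2.26 to 3.12 FPKM in knockout, where the ranges touched and the adjusted p was 0.0862. Sox17 and Sox18 differed from control by at most 0.06 on the log2 scale in both comparisons, with 95% intervals that lay between -0.50 and 0.55.

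**Figure D4:**
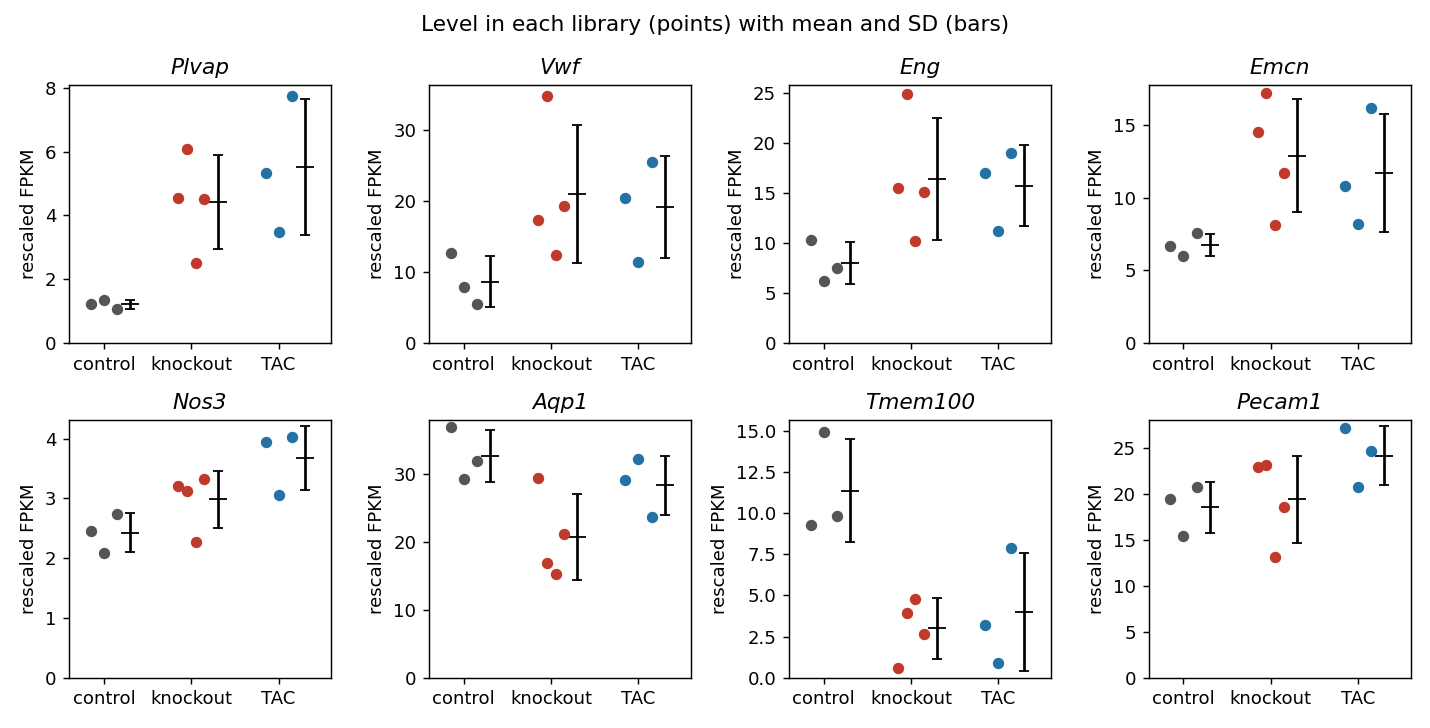
Level of the 7 called endothelial markers and of Pecam1 in each library (points, rescaled FPKM) with the group mean and SD (bars), for 3 control, 4 knockout and 3 TAC libraries. Controls are lowest for Plvap and Emcn and highest for Tmem100, while Pecam1 overlaps between knockout and control.

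Transport and metabolic markers went in different directions. Besides Plvap, Aqp1 was called in knockout and Nos3 in TAC. That is 33.3% of these 6 markers in each, against 20.8% and 15.5% of all tested genes. Aqp1 (ENSMUSG00000004655, chromosome 6, 55336432 to 55348555), the water channel of capillary endothelium and red cells, measured 36.9, 29.3 and 31.97 FPKM in control, 29.5, 17.0, 15.2 and 21.2 FPKM in knockout and 29.1, 32.3 and 23.7 FPKM in TAC libraries. Knockout replicate 1 lay within the control range and the other 3 knockouts below it. Aqp1 fell by 0.67 on the log2 scale in knockout (SE 0.19, adjusted p = 0.0304) and had a log2 fold change of -0.21 in TAC (adjusted p = 0.552). The knockout call was lost without control replicate 1 (adjusted p = 0.0997) or 3 (0.0664) and without knockout replicate 2 (0.0822), 3 (0.0745) or 4 (0.0508), in a range from 0.00461 to 0.111. Markers of red cells, 6 genes including those of the globins, summed to 288 to 1198 FPKM in control, 130 to 632 FPKM in knockout and 952 to 1676 FPKM in TAC libraries, and their part in the Aqp1 difference was not tested.

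Nos3 (ENSMUSG00000028978, chromosome 5, 24364810 to 24384474), the endothelial nitric oxide synthase, measured 2.45, 2.08 and 2.74 FPKM in control, 3.21, 3.12, 2.28 and 3.33 FPKM in knockout and 3.94, 3.06 and 4.03 FPKM in TAC libraries. All TAC libraries lay above all controls, and knockout replicate 3 lay within the control range. The log2 fold change was 0.45 in TAC (SE 0.14, adjusted p = 0.0496), at the edge of the threshold, and 0.22 in knockout (adjusted p = 0.277). The call was lost in 16 of 20 alternative settings, over which the adjusted p ranged from 0.0358 to 0.333. They included leaving out control replicate 1 (0.0889), 2 (0.145) or 3 (0.0563) and TAC replicate 1 (0.135) or 3 (0.145). Exons of Nos3 overlap 1040 nt of the antisense gene Gm15587, which stood at a mean of 0.610 FPKM.

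The fatty acid handling genes Fabp4 and Gpihbp1 were not called in either comparison. Fabp4 stood at 87.8, 68.9 and 102 FPKM in control, 93.4, 71.6, 55.0 and 59.2 FPKM in knockout and 65.9, 82.9 and 68.3 FPKM in TAC libraries, with log2 fold changes of -0.31 and -0.24. It made up 21.2 to 24.6% of the marker sum in control, 15.2 to 19.6% in knockout and 15.2 to 20.5% in TAC libraries. Fat cells also express Fabp4. A list of 6 adipocyte markers, among them Adipoq and Plin1, summed to 0.0629 to 0.334 FPKM per library, Lep being listed at 0 in all 10, and their part in the Fabp4 level was not tested. Gpihbp1, which carries lipoprotein lipase across capillary endothelium, had means of 18.8 ± 3.56 in control, 13.4 ± 3.57 in knockout and 16.1 ± 3.74 FPKM in TAC (SD, n = 3, 4 and 3), with adjusted p = 0.115 and 0.531. Cav1, the coat protein of caveolae, had log2 fold changes of -0.01 and -0.03.

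Tmem100 (ENSMUSG00000069763, chromosome 11, 90030348 to 90036508), a membrane protein of arterial endothelium that is a target of BMP9 and ALK1 signalling, had the lowest fold change of the markers in both comparisons. It measured 9.27, 14.95 and 9.82 FPKM in control, 0.576, 3.95, 4.79 and 2.65 FPKM in knockout and 3.18, 0.901 and 7.89 FPKM in TAC libraries. The controls were the 3 highest libraries, and the values within the other 2 groups were spread over a wide range. The knockout mean was 0.263 times and the TAC mean 0.352 times that of control. Tmem100 fell by 1.76 on the log2 scale in knockout (SE 0.50, adjusted p = 0.0286), while in TAC the log2 fold change of -1.55 (SE 0.53) did not pass (adjusted p = 0.0732). The knockout call was lost without any 1 of the 3 controls (adjusted p = 0.0519, 0.0993 and 0.0563) and without knockout replicate 1 (0.0564) or 4 (0.0535), in a range from 0.000607 to 0.106. Ly6c1, a surface antigen of capillary endothelium and leukocytes, had log2 fold changes of -0.31 and -0.01. It shares a stretch of 822 nt at 97.6% identity with Ly6c2, so its level is uncertain where fragments could be assigned to either.

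Emcn, Plvap and Tmem100 were the 3 markers whose knockout and control libraries did not overlap. The 2 above control compare with 14.8% and the 1 below with 16.0% of all tested genes that did the same. The number of calls moved with single libraries. In knockout, 2 markers were called without control replicate 2, 3 without knockout replicate 1, 2 without knockout replicate 2 and 1 without knockout replicate 4, while 8 were called without knockout replicate 3. In TAC, 4 were called without control replicate 1, 1 without control replicate 2, 1 without TAC replicate 1 and 5 without TAC replicate 2. Over all tested genes, leaving out a library lowered the calls from 2362 to between 1689 and 1949 in knockout. In TAC it lowered them from 1755 to between 1239 and 1424. The part of fewer libraries in the marker counts was not tested. The markers called could change as well as their number. Without control replicate 3, 4 were called in knockout, of which 1 was among the 6 of the main fit. Main calls made up 2 of 3 without knockout replicate 1 and 5 of 8 without knockout replicate 3. In TAC they made up 1 of 4 without control replicate 1 and 2 of 5 without TAC replicate 2. Without control replicate 2 or knockout replicate 2 or 4, every call in knockout was a main call.

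Knockout and TAC libraries were compared directly to ask whether endothelial RNA differed between the 2 models. With limma, 0 of 32 markers were called, where 3.28% of all tested genes were (1.58% higher and 1.70% lower in knockout), and 2 markers had an unadjusted p under 0.05, where 18.0% of all tested genes did. Those 2 were Esam, an adhesion molecule of endothelial tight junctions, at a log2 difference of -0.30 (95% interval -0.55 to -0.04, adjusted p = 0.204), and Aqp1 at -0.47 (-0.89 to -0.04, adjusted p = 0.231). All 4 knockout libraries lay below all 3 TAC libraries for Esam alone, at 8.65 to 11.7 against 11.8 to 13.3 FPKM, where 9.64% of all tested genes did so. None lay above all TAC libraries, where 8.43% of all tested genes did, and 9 markers had a difference above 0, where 48.5% did. That number ranged from 3 with equal library totals to 17 with rescaling to cardiomyocyte genes, where the median over the markers changed sign, from -0.09 to 0.02. For Plvap the difference was -0.26 (-0.79 to 0.27), and the intervals of Eng, Emcn, Vwf and Tmem100 all held 0, that of Tmem100 running from -1.30 to 0.89. Differences inside these intervals were not detectable with these libraries.

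A list of 30 further endothelial genes outside the marker set was read beside it, and 27 of them were tested. In knockout 2 were called (7.41%, against 20.8% of all tested genes), both higher, Lmo2 at 0.70 and Sox13 at 0.28, and the median was 0.16. In TAC 4 were called (14.8%, against 15.5% of all tested genes), all higher, Sox13 at 0.37, Palmd at 0.58, Hspg2 at 0.67 and Ecscr at 0.69, and the median was 0.14. Their sum was 152 to 183 FPKM in control, 163 to 219 FPKM in knockout and 197 to 232 FPKM in TAC libraries, and was lowest in control replicate 2 and, among knockouts, in replicate 3, as for the markers.

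Genes tied to one kind of vessel were read beside the markers, from lists of 6 to 12 genes. Of all tested genes, 10.6% were called higher and 10.2% lower in knockout, and 8.08% higher and 7.37% lower in TAC. In lists this short a share of calls rests on few genes. In knockout, arterial genes gave 3 called higher of 8 tested (Unc5b at 1.33, Gja4 at 0.80 and Efnb2 at 0.67), and in TAC 4 of 8 (the same genes at 0.78, 0.71 and 0.60, with Notch4 at 0.62). Unc5b, a netrin receptor, had the lowest adjusted p of the list, with 0.932 ± 0.109 FPKM in control (SD, n = 3), 3.85 ± 0.261 FPKM in knockout (SD, n = 4) and 2.32 ± 0.243 FPKM in TAC (SD, n = 3). Endocardial genes gave 2 of 5 called higher in both, Nrg1 at 1.42 and 1.14 and Npr3 at 0.94 and 1.06, and Cytl1 fell by 1.11 on the log2 scale in knockout. Of the lymphatic genes Flt4 (0.45 and 0.70) and Ccl21a (1.03 and 1.23) rose in both comparisons, Pdpn (0.49) rose in TAC, and Lyve1 fell by 0.83 on the log2 scale in knockout.

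Venous genes gave 1 call of 5 tested in knockout, a share of 20% against 20.8% of all tested genes. The gene was Lrg1, which fell by 1.12 on the log2 scale. Capillary genes gave 4 calls of 12 in knockout (33.3%), all lower (Cd36, Lpl, Timp4 and Aqp7), and none in TAC. Of all tested genes, 10.2% were called lower in knockout, and 15.5% were called in TAC. Cd36 and Lpl, the fatty acid transporter and the lipoprotein lipase, are also expressed by the muscle cells and stood at 692 ± 5.79 and 1052 ± 222 FPKM in control (SD, n = 3), far above any endothelial marker. Of 10 genes tied to sprouting vessels, 5 were tested, and Esm1, Angpt2, Pgf, Kcne3 and Plaur were not. Of those 5, 60% were called in knockout and 40% in TAC, against 20.8% and 15.5% of all tested genes. Mcam rose in both comparisons (0.73 and 0.65) and Nid2 rose in knockout (0.72). Apln, the apelin ligand, fell by 0.82 and 0.79 on the log2 scale, and Adm and Lama4 were called in neither.

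**Figure D5:**
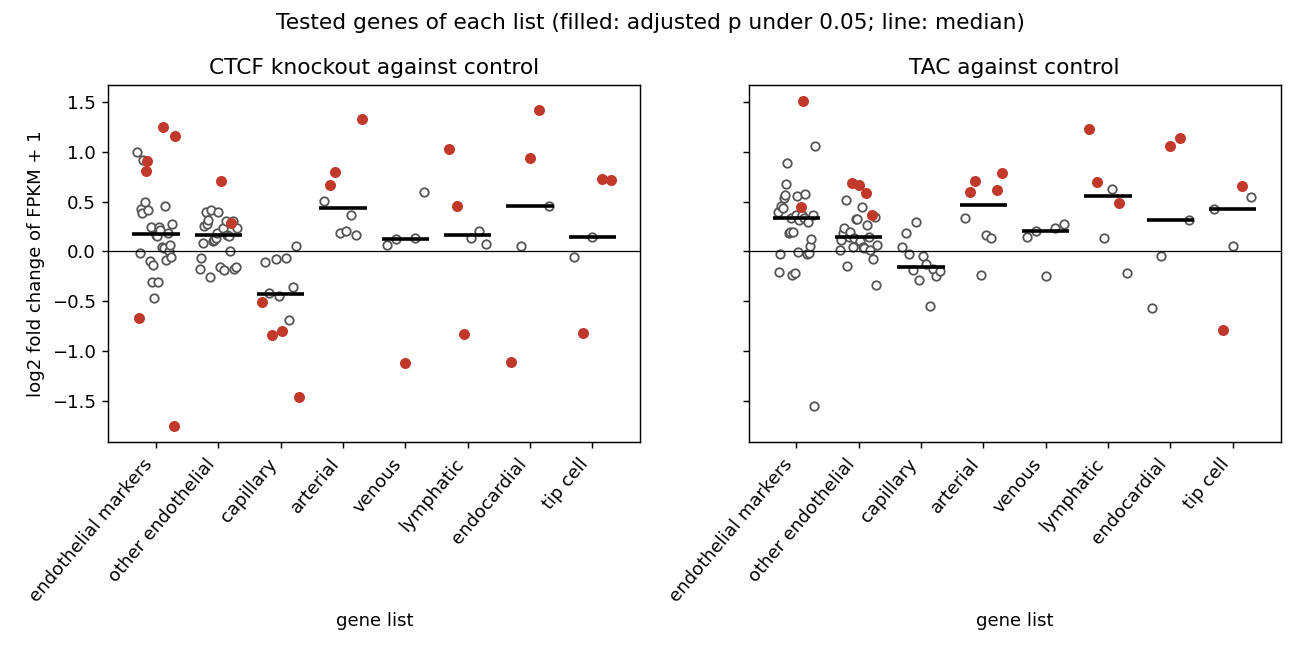
Log2 fold change of FPKM + 1 against control for each tested gene of the endothelial markers and of 7 other vascular lists, in knockout (left) and TAC libraries (right); filled points are called at an adjusted p under 0.05 and the black line is the median of the list. The medians of the markers are 0.17 and 0.33, and the capillary list has the lowest median in both panels.

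Ligands that act on the markers' receptors were also measured. Angpt1, the ligand of Tek, fell from 7.68 ± 1.28 FPKM in control (SD, n = 3) to 4.49 ± 0.977 FPKM in knockout (SD, n = 4) and 2.58 ± 0.241 FPKM in TAC (SD, n = 3), by 0.67 and 1.27 on the log2 scale. Fgf2 fell in both comparisons, Bmp6 rose in both (0.72 and 0.69), and Edn1, the endothelin-1 gene, rose in knockout (1.38). In all, 5 of 12 tested ligands were called in knockout (41.7%) and 4 in TAC (33.3%). Of all tested genes, 20.8% were called in knockout and 15.5% in TAC. Of 8 genes linked to the flow response, 0 were called in knockout by limma, with 1 at an unadjusted p under 0.05, and Nos3 and Adamts1 (0.99) were called in TAC.

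Markers of other non-muscle cells differed in direction between lists and within them. For comparison, 20.8% of all tested genes were called in knockout and 15.5% in TAC. Fibroblast genes gave 5 calls of 11 tested in each comparison, all higher, led by Col1a2 (1.41 and 1.39) and Col3a1 (1.90 and 1.95), while Dpt (-0.24), Ddr2 (-0.15), Pdgfra (-0.10) and Gsn (-0.07) were below 0 in knockout and not called. The list summed to 148 to 294 FPKM in control, 253 to 394 FPKM in knockout and 285 to 355 FPKM in TAC libraries. Macrophage and leukocyte genes gave 2 higher and 1 lower of 11 in knockout and 2 higher in TAC, with sums of 76.2 to 102, 83.9 to 137 and 119 to 136 FPKM. Pericyte and smooth muscle genes summed to 157 to 169 FPKM in control, 78.8 to 103 FPKM in knockout and 103 to 109 FPKM in TAC libraries. In that list Abcc9 and Acta2 fell and Cspg4 rose in both comparisons, Abcc9 being a channel subunit that muscle cells also express. Lymphocyte genes (7) and Schwann cell genes (5) were below the minimum level for testing and summed to at most 1.29 and 1.33 FPKM. The part of these cells in the marker results was not tested.

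Transcript shares were read within each marker. Of the 32, 13 had 1 transcript at 10% or more of the gene's level in some library and 19 had several. Flt1 is transcribed from the minus strand of chromosome 5, and its full-length transcript ENSMUST00000031653 (6895 nt) runs to base 147561604. A transcript of 6292 nt (ENSMUST00000110529) stops at 147635159 and one of 2049 nt (ENSMUST00000031652) at 147654269, so both lack the 3′ part of the gene. The full-length form held 44.4 to 63.6% of the Flt1 level in control, 43.4 to 49.8% in knockout and 47.5 to 54.3% in TAC libraries. The 2049-nt transcript held 3.62 to 18.7% in control, 14.7 to 31.0% in knockout and 18.2 to 22.9% in TAC libraries, and the ranges overlapped. The 6292-nt transcript held 30.5 to 31.9% in control, 20.5 to 32.1% in knockout and 22.5 to 25.6% in TAC libraries. Shares of some other markers, among them Cav1 and Egfl7, kept apart from control in both groups. Cav1 transcript ENSMUST00000007799 held 70.9 to 78.6% in control, 57.3 to 66.2% in knockout and 59.4 to 65.7% in TAC libraries. The leading Emcn transcript overlapped between all groups, and no share was tested.

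Of the called markers with several transcripts, Emcn and Vwf had the same leading transcript in all 10 libraries and Eng did not. For Emcn the 1357-nt transcript ENSMUST00000119475 held 67.1 to 77.7% of the level in all 10 libraries. For Vwf the 8817-nt transcript ENSMUST00000001995 held 56.0 to 92.0%, and a near copy of 8834 nt took up to 35.3% in control replicate 2. For Eng the 3422-nt transcript ENSMUST00000009705 held between 26.7 and 83.5% and was below ENSMUST00000167841 (37.7%) and ENSMUST00000113272 (28.9%) in TAC replicate 1. The estimate divides fragments among 3 transcripts that share most of their exons. Ramp2 shares 1103 nt of exon on the same strand with Vps25, which stood at a mean of 35.6 FPKM, so part of its level may belong to that gene.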

How the data were processed

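RNA of isolated cardiac myocytes from 10 mice was sequenced as stranded paired-end libraries, per the labels' protocols. The deposited files, 1 per library, give an FPKM for each annotated transcript, made by the authors with Cufflinks per the file headers' source field. Tools listed in the submitters' processing notes are Cufflinks 2.2.1 and Cuffdiff, with TopHat2 2.1.0 and Bowtie2, and the build is mm10. A deposited score of each transcript was not used. The labels name polyA RNA while their protocol names removal of ribosomal RNA, so RNA selection is uncertain.

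Transcript FPKM was summed over each gene ID. Loci at 0 in some libraries and at a median of 100 FPKM or more in the others (22 gene IDs, a rule set after these values were seen) and genes with no transcript of 300 nt (7765) were left out. Rescaling between libraries used a median of ratios (factors 0.912 to 1.10), and 11358 genes with a mean of at least 1 FPKM were tested as log2(FPKM + 1), a scale that understates the change of low genes. One limma 3.58.1 fit (R 4.3.3) of all 10 libraries, with a variance trend, gave two-sided p-values adjusted by the method of Benjamini and Hochberg over all tested genes. The procedure was tested on simulated data. Each library carries its own mouse number and counts as 1 replicate. Deviations of same-numbered libraries from their group means had correlations of both signs, from -0.30 to 0.33. Numbers were not used as pairs, though this does not exclude a pairing.

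The members and lists were chosen with earlier results of these data known. All 32 members are accounted for, members called in any comparison are given in full, and of the other lists the counts and up to 4 genes with the lowest adjusted p are given, with further genes named where they complete a count or link to a marker. Gene overlaps came from the exons of the deposited annotation and sequence copies from blastn 2.17.0 on GENCODE vM21 transcripts. Alternatives were other pseudocounts, filters, scalings, fits, sex as a covariate, a replicate block and each library left out. Xist and Y-linked genes marked 1 of 3 control, 1 of 4 knockout and 2 of 3 TAC libraries as male.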

Additional observations from a re-analysis of the deposited data

How the results depend on the processing

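No called marker changed direction under any alternative. With 6 markers called in knockout, the count was 1 with no filter on low levels, 10 with no rescaling and 3 with rescaling to cardiomyocyte genes, and 1 to 8 with single libraries left out. With 2 called in TAC, it was 1 with a pseudocount of 0.5, no filter, a minimum mean of 5 FPKM, rescaling to cardiomyocyte genes, robust moderation or genes of any length, 4 with no rescaling, and 1 to 5 with single libraries left out. The 1 call in TAC at a minimum mean of 5 FPKM was not among the 2 of the main fit. Between knockout and TAC the count was 0 in all settings, libraries left out included. The TAC to control ratio of the marker sum was 1.25 with library totals made equal. Rescaling to other endothelial genes, which evens out the quantity that the sum measures, gave 0.922 in knockout and 0.972 in TAC. With sex as a covariate, 7 markers were called in knockout, and in TAC 1 higher and 1 lower, Nos3 being lost. Endothelial rescaling and leaving out TAC replicate 3 also gave 1 higher and 1 lower call in TAC.

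With the replicate number as a block, 3 markers were called in knockout, 1 in TAC and 0 between them. Same-numbered libraries had correlations of -0.30, -0.12 and 0.13 (knockout and control) and 0.33, -0.04 and 0.21 (TAC and control). Libraries of unlike number ran from -0.290 to 0.291 in knockout and control and from -0.345 to 0.207 in TAC and control. In the latter the pair numbered 1 (0.327) was highest of all. Deviations from the means of groups this small cannot settle whether libraries were paired.

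Calls were lost in 8 of 22 alternatives for Aqp1 and Eng, 9 for Emcn, 7 for Tmem100 and 10 for Vwf, with adjusted p up to 0.111, 0.111, 0.109, 0.106 and 0.127. Over all genes, the 2362 called in knockout became 1487 at a minimum of 5 FPKM, 1344 with equal totals and 1347 with endothelial rescaling. In TAC the 1755 became 1167 at 5 FPKM, 1043 with endothelial rescaling and 1127 when only those libraries were fitted. With a library left out, the counts were 1689 to 1949 in knockout and 1239 to 1424 in TAC. Between knockout and TAC the 372 became 195 with no filter, 227 with equal totals, 158 with endothelial rescaling, 233 with sex, 200 with the block and as few as 133 with a library left out. Endothelial rescaling moved the median gene by -0.14 in knockout and -0.18 in TAC, and equal totals moved it by 0.12 in TAC. The share of calls that were higher was then 34.7%, 28.7% and 77.4%, and 73.5% in knockout with no rescaling. The cause of these shifts was not tested. No read counts are at hand, so depth sets no computed limit.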
